A study of Sus scrofa with 8 samples.

Results

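The 8 genes described here are the aquaporin water channel genes AQP1, AQP2, AQP3, AQP4, AQP5, AQP8, AQP9 and AQP11 of the pig, as they stand in the gene annotation that the authors edited for their airway submucosal gland (SMG) libraries. They were taken by gene name, and they are 8 of 30390 genes in the annotation and 8 of the 12 genes of the aquaporin family that it holds. The libraries came from SMG of 4 CFTR-/- (CF) and 4 wild-type (WT) newborn pigs, 1 library per animal, and were made for 3′ single-cell RNA sequencing. Cystic fibrosis arises from the loss of the anion channel CFTR, and the CF pigs carry no functional copy of it. The same annotation served all 8 libraries, so it holds no value per animal, no difference between CF and WT, and no expression from which a cell type could be checked. Sequencing depth is unknown, because count matrices were not used here. The lengths and positions below are exact coordinates without replicate error, and they describe gene models and not RNA levels.

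Aquaporins are membrane channels that assemble as tetramers, and each subunit has its own pore. The pore is lined by a pair of short loops, each of which carries the residues asparagine, proline and alanine (the NPA motif). AQP1, AQP2, AQP4 and AQP5 are the classical, water-selective members. In mammals AQP1 is known from the endothelium of small vessels, AQP2 from the collecting duct of the kidney, AQP4 from the basolateral membrane of epithelia and from glia, and AQP5 from the apical membrane of gland acini. AQP3 and AQP9 are aquaglyceroporins, which also pass glycerol. AQP3 lies in the basolateral membrane of many epithelia and AQP9 is prominent in the liver. AQP8 passes water and other small molecules, and AQP11 is an unorthodox member found mostly inside the cell.

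The motif sequences show how the 8 genes differ at the pore. The runs below are the coding sequence around the second motif on Sscrofa11.1, 5′ to 3′, with the 9 bases of the motif codons in capitals.
AQP1: tgcggcattAACCCTGCCcggtccttcggc
AQP2: tgctccatgAATCCTGCCcgctcgctggct
AQP4: gccagtatgAACCCTGCCcgatcctttgga
AQP5: tgctccatgAACCCAGCCcgctctttcggc
AQP3: tatgccgtcAACCCTGCCcgggacttcggc
AQP9: tgtgccatgAACCCAGCTcgagacctgagt
AQP8: gcctgcatgAATCCCGCAcgagcctttgga
AQP11: gcggtatttAATCCAGCTttggcactttca
In AQP1, AQP2, AQP4 and AQP5 the second motif was followed by arginine and then serine (codons tcc, tcg, tcc and tct). In AQP3 and AQP9, the aquaglyceroporins, arginine was followed by aspartate (gac in both). AQP8 had arginine and alanine at these positions, and AQP11 had leucine and alanine, so AQP11 alone among the 8 lacked the arginine.

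The first motif read NPA in 7 of the 8 genes. The exception was AQP11, in which the third residue was cysteine. The runs of AQP5, AQP3 and AQP11 at this site are shown for comparison, again with the motif codons in capitals.
AQP5: ggccacatcAACCCTGCCatcacgctggcc
AQP3: gcccacctgAACCCTGCTgtgaccttcgct
AQP11: acctccagcAATCCGTGCggagtgatgatg
AQP5 lies at chr5:15876723-15876752 here and at chr5:15878490-15878519 for the second motif, both on the plus strand. AQP3 lies at chr10:33049017-33049046 and at chr10:33049942-33049971, also on the plus strand. AQP11 lies at chr9:12065835-12065864 and at chr9:12071044-12071073 on the plus strand. All of these stretches are exonic and coding.

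The 8 coding sequences were short and close to each other in length. Each opened with a start codon, closed with a stop codon and kept an open frame between them. For AQP4 this was checked in the curated form with 301 codons. The coding length without the stop codon was 789 bp in AQP8, 795 bp in AQP5, and 813 bp in AQP1, AQP2 and AQP11. It was 870 bp in AQP3, 885 bp in AQP9 and 969 bp in the longest form of AQP4. Their median was 813 bp, against 1206 bp (interquartile range, 837 to 1992 bp) for the 20661 nuclear protein-coding genes of the annotation. All 8 members lay between the 22.5th percentile (AQP8) and the 37.5th percentile (AQP4) of those genes. The 390 other curated transepithelial transporters with a coding model had a median of 1620 bp. The motifs began at codons 69 and 185 in AQP5, 68 and 184 in AQP2, and 83 and 215 in AQP3. The first motif began later in AQP8 (codon 94) and AQP11 (codon 99) than in the other members, although AQP11 has the same 271 codons as AQP2. The second motif began at codon 212 in AQP8 and at codon 216 in both AQP11 and AQP9.

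Identity between the translated coding sequences grouped the members in the same way as the residues after the second motif. Over the 28 pairs the median identity was 27.1% of aligned residues. AQP2 and AQP5 were the most alike, with 169 of 262 aligned residues identical (64.5%). The other pairs among AQP1, AQP2, AQP4 and AQP5 lay between 43.7% (AQP4 and AQP5) and 46.2% (AQP1 and AQP2). AQP3 and AQP9 shared 140 of 290 residues (48.3%), while neither of them exceeded 29.1% with any of the 4 classical members. AQP8 was closest to AQP5 (34.8%) and AQP2 (33.8%). AQP11 stood farthest from the rest, with 15.5% identity to AQP4 at the lowest and 21.2% to AQP9 at the highest. Pairs share a gene, so these 28 values are not independent.

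**Figure D1:**
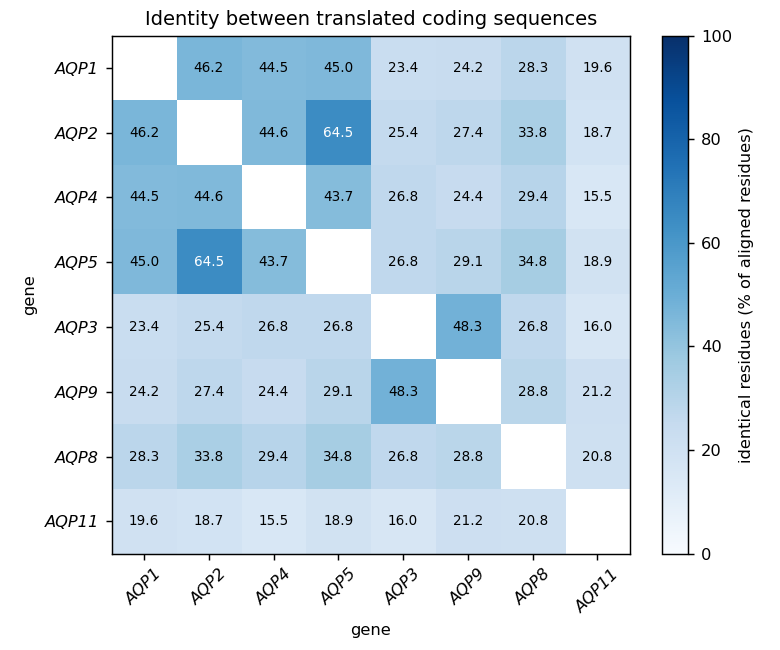
Percent of aligned residues that are identical for each pair of the 8 members, with the genes in the same order on both axes and darker blue for higher identity. AQP2 and AQP5 (64.5%) and AQP3 and AQP9 (48.3%) are the most alike pairs of their groups, and the row of AQP11 holds no value above 21.2%.

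The number of exons ran from 3 to 6 and was nearly the same within a group. The transcript that ends farthest 3′ had 3 exons in AQP11, 4 in AQP1, AQP2 and AQP5, 5 in AQP4 and 6 in AQP3, AQP8 and AQP9. The curated transcript of AQP4 had 4 exons. The median of 4.5 exons compares with 7 for all protein-coding genes and 11 for the other curated transporters. All 30 introns of these transcripts began with GT and ended with AG, and they ran from 86 bp in AQP3 to 27863 bp in AQP9. AQP9, which spans 50073 bp, was 98.2% intron, and AQP3, which spans 8622 bp, was 46.6% intron. The share of AQP3 is that of the edited model. Its 3′ UTR had 3728 bp there and 18 bp in RefSeq, which lowered the share.

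Exon lengths repeated between genes of a group. The second coding exon of AQP1, AQP2 and AQP5, and the exon at the same place in AQP4, had 165 bp each. The next exon had 81 bp in AQP1, AQP2 and AQP4 and 84 bp in AQP5. In AQP3 and AQP9 the 4 exons from the second to the fifth had the same lengths in both genes, 127, 138, 119 and 218 bp in that order. These equal lengths stand beside very unequal introns, since the intron after exon 1 took 3039 bp in AQP3 and 27863 bp in AQP9.

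For the positions of introns in the protein, the curated AQP4 transcript with 301 codons was used, which lacks the first coding exon of the longest form. When the introns were placed on an alignment of the 12 family proteins, 22 of the 29 coding introns lay at a position and phase shared by 2 or more members. The phase of an intron says whether it falls between codons (phase 0) or after the first or second base of a codon (phase 1 or 2). AQP1, AQP2, AQP4 and AQP5 had the same 3 introns, all of phase 0. The first lay 52 residues after the start of the first motif in each of the 4 genes, and the second lay 9 residues before the second motif. The third lay 18 residues after the start of the second motif in AQP1, AQP2 and AQP4 and 19 residues after it in AQP5. The other classical genes of the family, AQP6 and MIP (the lens aquaporin), had these 3 introns too.

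AQP3 and AQP9 shared 5 introns, 2 of phase 0, 2 of phase 1 and 1 of phase 2, and none of these matched an intron of the classical members. AQP7 and AQP10, the other aquaglyceroporins, had the same 5 positions. The 5 introns of AQP8 and the 2 introns of AQP11 matched no other gene of the family. An intron of AQP8 (phase 2) and an intron of AQP11 (phase 1) fell in the same alignment column as the second intron of the classical genes, 9 residues before the second motif, but in another phase. Over all 29 coding introns, 18 were of phase 0, 6 of phase 1 and 5 of phase 2.

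**Figure D2:**
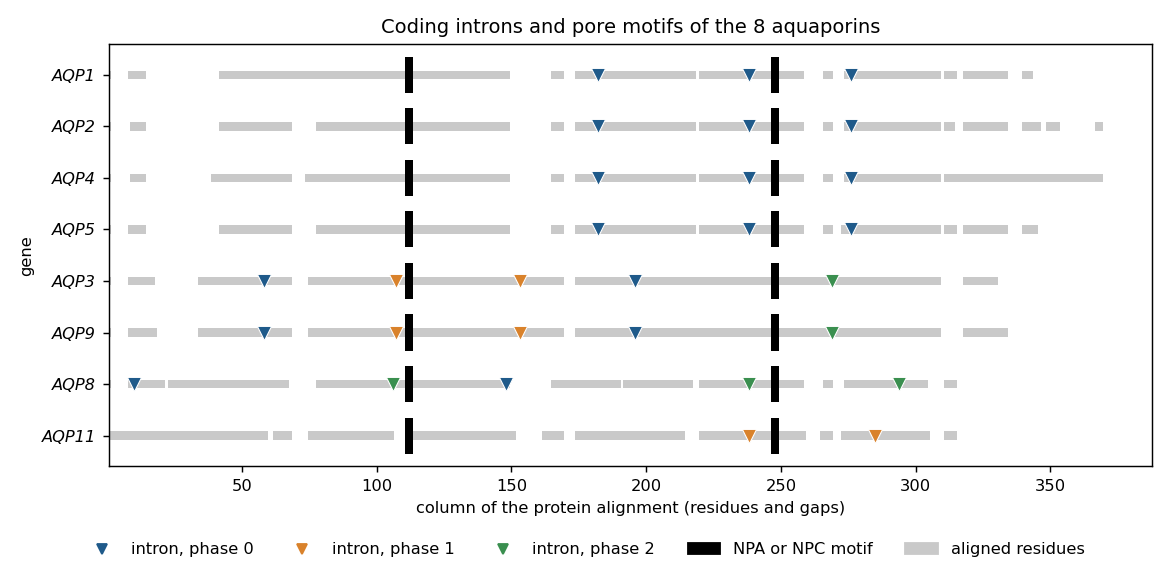
Coding introns (triangles, coloured by phase) and NPA or NPC motifs (black bars) of the 8 members on the alignment of the 12 family proteins, with the alignment column on the x axis and gaps left blank. The 4 classical genes share 3 columns of phase 0 introns, AQP3 and AQP9 share 5 columns, and AQP8 and AQP11 match no other gene in both column and phase.

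The genes lay on 7 chromosomes, 4 of them on the plus strand and 4 on the minus strand. On Sscrofa11.1 the deposited models placed AQP1 (gene ID 407773) at chr18:42063482-42076741 on the minus strand, AQP4 (gene ID 100126277) at chr6:111407632-111422169 on the minus strand, AQP8 (gene ID 100127152) at chr3:21493564-21503778 on the minus strand and AQP9 (gene ID 100127153) at chr1:113798380-113848452 on the minus strand. AQP3 (gene ID 100126235) stood at chr10:33045374-33053995, AQP11 (gene ID 100127151) at chr9:12065550-12076339, AQP2 (gene ID 100147810) at chr5:15862739-15868565 and AQP5 (gene ID 100126278) at chr5:15876527-15880077, all on the plus strand.

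AQP2 and AQP5 were the only member pair within 1 Mb of each other. They were separated by 7961 bp with no gene between them, on the same strand and in the same order as transcription, and together they covered 17339 bp. AQP6 followed AQP5 after a further 8002 bp, also on the plus strand and with no gene between, so the 3 genes form a tandem row. AQP3 had a family neighbor as well: AQP7 began 44750 bp after its deposited end on the same strand, with no annotated gene in the gap. MIP lies on the same chromosome as the AQP2, AQP5 and AQP6 row but 5.9 Mb from AQP6 and on the other strand. The neighbors AQP2 and AQP5 had the highest identity of the 28 pairs, and AQP3 shared its 5 introns with AQP7. AQP2 was 58.0% identical to AQP6 in its row and 57.6% to the distant MIP. For AQP5 these values were 53.8% and 50.2%. The likeness of AQP3 to AQP7 was not particular to a neighbor. AQP3 was 45.5% identical to AQP7, against 48.3% to AQP9 and 48.4% to AQP10. AQP9 and AQP10, which have the same 5 introns, lie on other chromosomes.

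**Figure D3:**
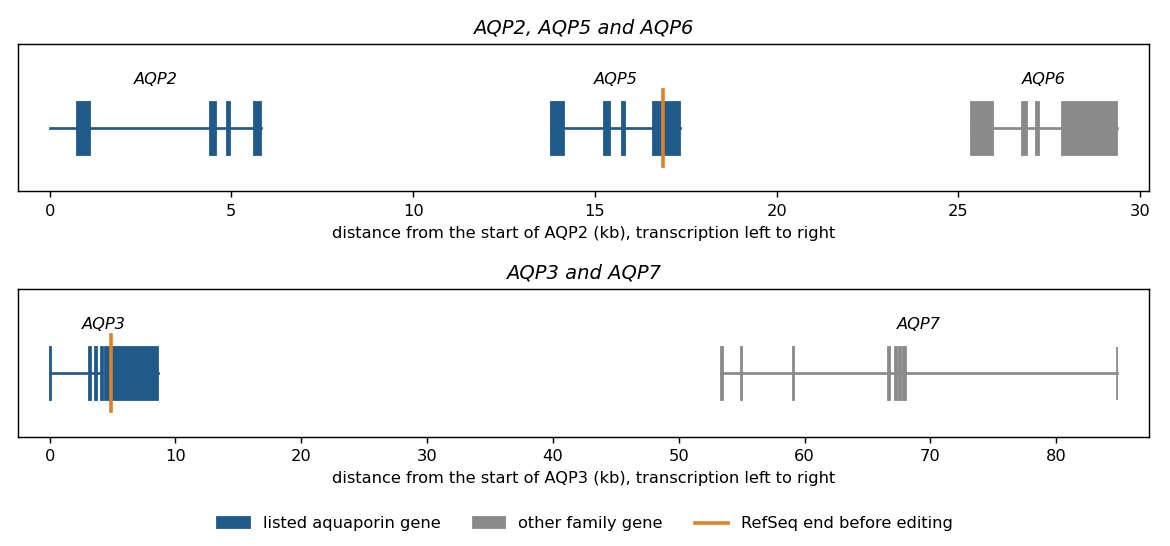
Exons (boxes) of the transcript that ends farthest 3′ and gene spans (lines) of the AQP2, AQP5 and AQP6 row and of AQP3 and AQP7, by distance in kb from the start of the first gene, with listed genes in blue and other family genes in grey. AQP2 begins with the start of its other transcript, so its line runs ahead of its first box, and orange bars mark the RefSeq ends of AQP5 and AQP3 before editing.

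The other neighbors were unrelated genes. AQP1 began 64 bp from a long noncoding RNA gene on the opposite strand, and GHRHR (growth hormone releasing hormone receptor) lay 17303 bp downstream on its own strand. AQP11 began 662 bp from another long noncoding RNA gene on the opposite strand, and CLNS1A followed it in the opposite orientation after 16650 bp. AQP8 had ZKSCAN2, a zinc finger gene, 7538 bp downstream on the opposite strand. AQP4 lay 38087 bp from CHST9, a sulfotransferase gene, and AQP9 lay 84269 bp from ALDH1A2, which encodes a retinaldehyde dehydrogenase. NOL6 stood 10172 bp upstream of AQP3, and FAIM2 49709 bp upstream of AQP2. None of the 8 members shared an exon base with another gene on the same strand, where 3.34% of all protein-coding genes did. With 8 genes, a count of 0 does not set them apart from that share. No member shared an exon base with a gene on the opposite strand, and none overlapped the span of a gene on its own strand.

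The members differed most in where their models end. In 3′ single-cell sequencing the reads come from near the 3′ end of a transcript, and a read counts for a gene only where it lies in that gene's exons, so the end of the model sets which reads can be counted. The 3′ UTR was measured in exon bases beyond the stop codon, in whichever coding transcript of the gene ends farthest 3′. In the deposited annotation it was 4214 bp in AQP4, 3728 bp in AQP3, 1901 bp in AQP1, 547 bp in AQP5, 35 bp in AQP11, 26 bp in AQP8, 12 bp in AQP9 and 3 bp in AQP2. The 8 genes thus fell into 4 with a 3′ UTR of 547 bp or more and 4 whose model stopped almost at the stop codon. The median was 291 bp, against 716 bp (interquartile range, 212 to 1867 bp) for all protein-coding genes, and no member lay between 35 and 547 bp. With the curated transcript of each gene the members' median was 20 bp. AQP4 (92.9th percentile), AQP3 (90.9th) and AQP1 (75.4th) stood in the upper part of that distribution, AQP5 at the 43.6th percentile, and the remaining 4 between the 8.9th (AQP2) and the 10.7th (AQP11).

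A 3′ UTR under 50 bp occurred in 4 of the 8 members and in 11.7% of all protein-coding genes, and in 9 of the 390 other curated transporters (2.31%). The model of AQP2 is the extreme case. Its last 30 bases, at chr5:15868536-15868565 on the plus strand, are nearly all coding, with the stop codon in capitals.
AQP2: agcctgccgcggggcagcaaggccTGAgcg
In the last 500 bases of the spliced model, 497 bases were coding in AQP2, 488 in AQP9, 474 in AQP8 and 465 in AQP11. Whether the RNA of these genes ends where the models end was not tested. These windows reached back over 4 exons in AQP2 and AQP8 and over 3 in AQP9 and AQP11. In AQP1, AQP3, AQP4 and AQP5 the same window held no coding base and stayed within the last exon.

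AQP3 and AQP5 owe their place among the 4 genes with a 3′ UTR of 547 bp or more to the editing. The 3′ end differed between the deposited annotation and RefSeq in 2 of the 8 members, which are these 2 genes of gland water transport, and in 0.998% of all nuclear protein-coding genes (206 of 20649). Among the other curated transporters it differed in 8 of 390 (2.05%). The authors chose the genes to edit, so these shares describe that choice. The 3′ UTR of AQP3 was 3728 bp in the deposited annotation and 18 bp in RefSeq, and that of AQP5 was 547 bp in the deposited annotation and 78 bp in RefSeq. The other 6 members had identical ends in both. The names of 7 of the 8 members, all but AQP8, occur in the portion used here of the authors' list of checked genes.

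The editing changed what the last 500 bases of both models contain. In AQP3 they held 0 coding bases in the deposited annotation and 482 in RefSeq, where the window spread over 3 exons. In AQP5 they held 0 coding bases in the deposited annotation and 422 in RefSeq, again over 3 exons. The 3′ UTR made up 81.0% of the AQP3 transcript in the deposited annotation and 2.02% in RefSeq, and 40.6% of the AQP5 transcript in the deposited annotation and 8.89% in RefSeq. With both genes set back to RefSeq, 5 of the 8 members rather than 4 had a 3′ UTR under 50 bp, and the median was 30.5 bp.

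**Figure D4:**
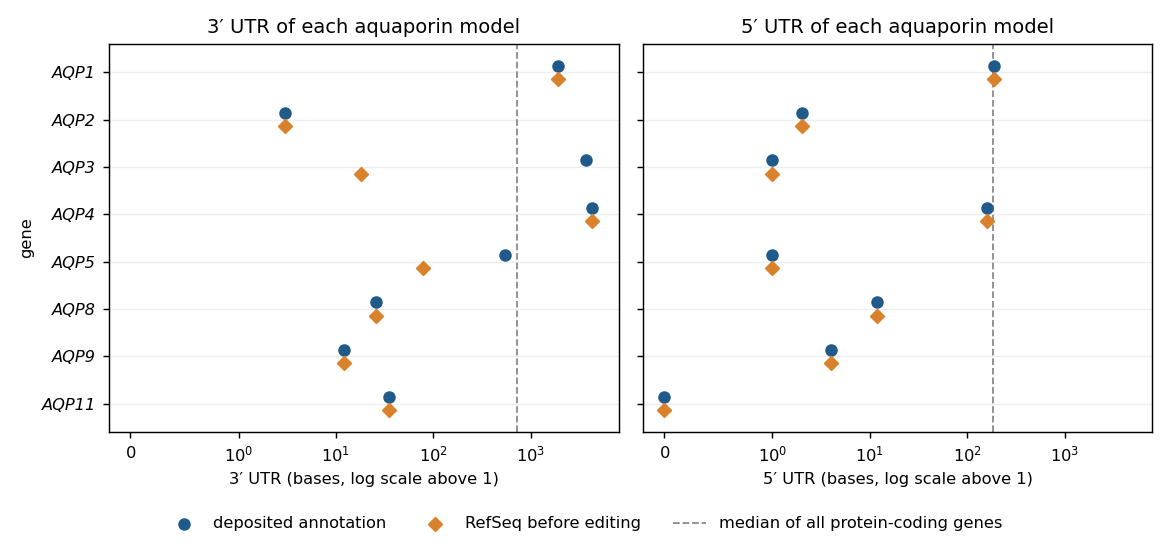
Length of the 3′ UTR (left) and the 5′ UTR (right) of each member in the deposited annotation (blue circles) and in RefSeq before editing (orange diamonds), in bases on a scale that is logarithmic above 1. Only the 3′ UTRs of AQP3 (3728 and 18 bp) and AQP5 (547 and 78 bp) differ between the annotations, and the dashed lines mark the medians of all protein-coding genes at 716 and 186 bp.

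The end of the AQP5 model moved onto a poly(A) signal. AATAAA and ATTAAA, the most common signals for cleavage and polyadenylation, were searched on the transcript strand in the last 50 bases of each model. They were present in 3 of the 8 members, AQP1, AQP4 and AQP5, and in 60.9% of all protein-coding genes. The final 30 bases of these 3 models are shown because they carry the signal, which is in capitals.
AQP5: ccAATAAActactgacattcatgtcccgcc
AQP1: tgttaagaaAATAAAgaataacagaggtca
AQP4: AATAAActgttaaatgttttgaaaggtaaa
The signal began 28 bases before the end of AQP5, 21 bases before that of AQP1 and 30 bases before that of AQP4. In RefSeq the end of AQP5 had neither hexamer, so 2 members held one. The deposited end of AQP3 had neither hexamer, and its 3728 bp 3′ UTR held 1 in all, against 15 in that of AQP4. The models of AQP2, AQP8, AQP9 and AQP11 ended without either. A missing match says only that these letters are not in the window.

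The base composition of the 3′ UTRs differed between genes. That of AQP5 was 65.3% G and C, that of AQP1 58.0%, that of AQP3 52.8% and that of AQP4 35.1%. Repeats, which the reference genome marks in lower case, took up 34.0% of the 3′ UTR of AQP5, 20.6% of that of AQP3, 18.2% of that of AQP4 and 7.63% of that of AQP1.

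Nearly all of the members' exon sequence was unique in the genome. Words of 31 bases were counted on both strands of the whole assembly, and in AQP1, AQP2, AQP4, AQP8, AQP9 and AQP11 every word that fits inside an exon occurred once. In AQP3, 97 of 4422 words had more than 1 copy, and the most frequent of them had 72460. All of these lay in the added portion of its 3′ UTR, in a stretch of 243 bp from 421 to 179 bases before the deposited end (chr10:33053574-33053816), of which 222 bp are marked as repeat. This stretch is inside the last 500 bases of the model. Words with 1 copy still covered 4596 of the 4602 exon bases of AQP3.

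In AQP5, 8 of 1226 words had a second copy, and the first of them recurred in AQP6. These words cover the first 38 bases of AQP5 exon 3 (chr5:15878475-15878512), which run into the second NPA motif. They end 1565 bases of genome before the deposited end of AQP5, in the exon before the last. The 547 bp 3′ UTR of AQP5 held no repeated word. The effect of either stretch on read counts was not tested.

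**Figure D5:**
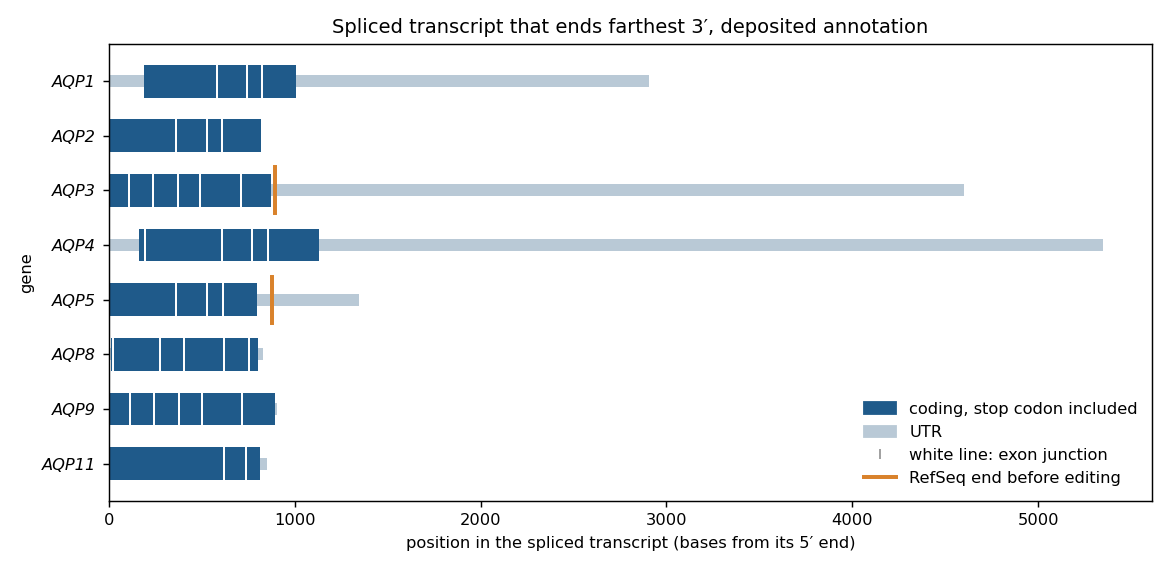
Spliced transcript that ends farthest 3′ for each member, by position in bases from its 5′ end, with coding sequence as thick dark bars, UTRs as thin pale bars, exon junctions as white lines and the RefSeq ends of AQP3 and AQP5 before editing as orange bars. AQP1, AQP3, AQP4 and AQP5 have 3′ UTRs of 547 to 4214 bp, while AQP2, AQP8, AQP9 and AQP11 end within 35 bp of the stop codon.

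The 5′ ends were short in most members. The 5′ UTR of the same transcripts was 190 bp in AQP1, 161 bp in AQP4, 12 bp in AQP8, 4 bp in AQP9, 2 bp in AQP2, 1 bp in AQP3 and AQP5 and 0 bp in AQP11. The median was 3 bp, against 186 bp for all protein-coding genes and 256 bp for the other curated transporters. It was under 50 bp in 6 of the 8 members and in 21.5% of all protein-coding genes. No 5′ end was changed by the editing, so AQP3 and AQP5 combine a lengthened 3′ UTR with a 5′ UTR of 1 bp. Because of the short UTRs the whole transcript had 821 bp in AQP2, 830 bp in AQP8, 851 bp in AQP11 and 904 bp in AQP9, against 1346 bp in AQP5, 2907 bp in AQP1, 4602 bp in AQP3 and 5347 bp in AQP4.

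In AQP1 and AQP4 the UTR lengths moved with the kind of model. A curated transcript in RefSeq is often built from a cloned coding sequence, while a predicted transcript is assembled from RNA and protein alignments. AQP3, AQP5, AQP8, AQP9 and AQP11 had a curated transcript and nothing else, 5 of the 8 members against 8.39% of all protein-coding genes. Among all protein-coding genes with curated transcripts only, 19.3% (335 of 1734) had a 3′ UTR under 50 bp, against 11.0% (2081 of 18886) of those with a predicted coding transcript. The long UTRs of AQP1 and AQP4 came from predicted transcripts. The curated transcript of AQP1 had no UTR at either end, and the curated transcript of AQP4 had a 3′ UTR of 14 bp. In AQP2 the 3′ UTR was short in both kinds, with 3 bp in the curated and 34 bp in the predicted transcript. Its 5′ UTR was 2 bp in the curated and 530 bp in the predicted transcript.

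The members had 18 coding transcripts in all, which held 11 distinct coding structures. AQP4 had 9 of the 18, AQP1 and AQP2 had 2 each, while AQP3, AQP5, AQP8, AQP9 and AQP11 had 1 each. AQP1 also had 1 noncoding transcript. Of the 9 AQP4 transcripts, 8 encoded the same 301 codons and differed only in their UTRs, with 5′ UTRs of 11 to 519 bp. The ninth added 66 bp of coding sequence at the 5′ end for a total of 323 codons. A long and a short form of AQP4 that differ at the N terminus are well known in mammals, where they are called M1 and M23. The 3′ UTR of AQP4 was 4214 bp in the long form, and 14, 3593 or 4204 bp in the short ones.

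The other transcript of AQP2 was of a different kind. This predicted model had 3 exons, 876 bp of coding sequence, a 5′ UTR of 530 bp and a 3′ UTR of 34 bp, and it ended at 15867230, inside what is exon 2 of the curated AQP2 model. It shared 409 coding bases with the curated transcript, and 360 of them were read in the same frame, which is the length of the coding part of curated exon 1. The remaining 467 coding bases lay outside the curated coding sequence. The curated AQP1 transcript had 812 coding bases, all of them shared in frame with the 813 of the predicted one.

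The study's own probes for these genes were matched to the models. It used in situ hybridization targets for AQP5 and AQP3, the channels of the apical and basolateral side, and all 7 target sequences were found without a mismatch. The AQP5 targets lay in exon 1 and exon 4, and the AQP3 targets in exons 1, 3 and 6. Along the spliced transcript the target nearest to the 3′ end lay 485 bases from the deposited end and 16 bases from the RefSeq end of AQP5, and 3724 bases from the deposited end and 14 bases from the RefSeq end of AQP3. No target reached into the added 3′ UTR of either gene. The closest other family sequence differed from the targets at 7 to 18 positions, and the lowest number was that of the AQP5 exon 1 target in AQP2.

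The primers for quantitative PCR of AQP5 are given because they cross the first intron.
Forward: gagcaggcatcctgtatggg
Reverse: gccagctggaaggtcagaat
The forward primer matched exon 1 at chr5:15876829-15876848 and the reverse primer matched the opposite strand of exon 2 at chr5:15878033-15878052. The product was 127 bp on the transcript and 1224 bp on the genome. The nearest sequence in another family gene differed from the forward primer at 6 positions (AQP3) and from the reverse primer at 5 positions (AQP2).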

How the data were processed

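The values are the first and last base of each gene, exon and coding segment on Sscrofa11.1, counted from 1, in the annotation deposited by the authors. Per the study's methods and its list of edits, they converted NCBI Sus scrofa Annotation Release 106, elongated 3′ UTRs, shortened overlapping models and renamed, added or deleted genes. It was the reference for Cell Ranger (3.0.2 in the submitters' processing notes). Here it was compared with RefSeq release 106 on the same build.

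Each gene was represented by its coding transcript that ends farthest 3′. Mitochondrial genes were left out of the comparison genes. Codons were translated from the deposited coding sequence of the curated transcript (of AQP1 the predicted one, which is complete), because no separate protein table was used here, and aligned with mafft 7.526. UTR and coding lengths were recovered in 200 of 200 simulated gene models. These models had short UTRs and a single transcript each, so long UTRs and the choice between transcripts were not tried. Of 411 names of other curated transporters, 390 had a coding model. Sequences are from RefSeq (Sscrofa11.1), and primers and targets from the study's supplement. The other tools were samtools 1.23.1 and Python 3.11.15 with numpy 2.4.6, matplotlib 3.10.9 and pysam 0.24.0.

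The members, lists and measures were chosen with earlier results of these data known, and no test was made. The genes named are the members, the other family genes, and the nearest gene on each side and downstream on the same strand. Pseudogenes and genes without exons were left out of the search for nearest genes.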

Additional observations from a re-analysis of the deposited data

How the results depend on the processing

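The annotation holds no replicates, so each value is exact for the model and the choice of model is the main limit. Of 22 alternatives, 13 were counted as leaving the result the same or nearly so. These include the poly(A) count of 2 rather than 3 in RefSeq. The 9 counted as moved include the median 3′ UTR of 294 rather than 291 bp. The 2 changed 3′ ends, the 1 member pair within 1 Mb and the 0 shared exons held under every alternative tried for them. The 3 ends with a poly(A) signal held under the other window and with AATAAA alone, and were 2 in RefSeq before editing. The median 3′ UTR of 291 bp was 294 bp with the stop codon counted, 30.5 bp in RefSeq before editing, 371.5 bp over all family genes and 20 bp with the curated transcript of each gene, an alternative chosen after seeing the data. The median 5′ UTR of 3 bp was 8 bp both with the transcript that starts farthest 5′ and with the longest coding transcript. The median coding length was 841.5 bp with the longest coding transcript, the median exon number 5.5 with merged exon blocks, and the 18 coding transcripts reduced to 11 distinct coding structures. No paired analysis was possible because 1 annotation served every library, with no measurement for any of them.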
